A study of Mus musculus with 16 samples.

Results

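The genes described here are 10 transcripts of the secretory IgA system of the gut: *Pigr*, *Jchain*, *Tnfsf13*, *Tnfrsf17*, *Sdc1*, *Prdm1*, *Irf4*, *Xbp1*, *Mzb1* and *Derl3*. They were chosen by name, for their known place in plasma cells or in the transport of IgA across the epithelium, out of the 21965 genes of the count table, and all 10 were found and all 10 passed the filter on low counts that left 13811 genes for testing. The data are RNA-seq read counts from the terminal ileum of 16 male mice on a C57BL/6 background, with 1 library per mouse. Wild-type mice (WT) were compared with *fat-1* littermates, which the labels write as Fat1+/- and which are heterozygous for a *C. elegans* transgene, active in every tissue, that encodes an n3 fatty acid desaturase, so that n6 fatty acids are turned into n3 fatty acids. This transgene is not the mouse gene *Fat1*, and its own expression was not analysed here. The mice were 8 to 10 weeks old at the start and received an ethanol-containing Lieber-DeCarli liquid diet (EtOH), raised in steps to 6% for the last 3 weeks, or were pair-fed (PF) the same calories with maltose dextrin in place of EtOH. The PF groups held 4 WT and 4 *fat-1* mice, and the EtOH groups 3 WT and 5 *fat-1* mice. The library numbers 1 to 8 in the labels belong to PF mice and 9 to 16 to EtOH mice, so that diet and library order cannot be told apart.

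In the gut wall, B cells that have switched to IgA become plasma cells in the lamina propria. A plasma cell is a secretory factory: IRF4 and BLIMP-1 (*Prdm1*) shut down the B cell program, XBP1 enlarges the endoplasmic reticulum (ER), MZB1 assists the folding of antibody and Derlin-3 (*Derl3*) helps to remove chains that misfold. The joining chain (*Jchain*) links IgA molecules into dimers, and the polymeric immunoglobulin receptor (*Pigr*), made by the epithelium, binds these dimers at the base of the cell, carries them to the lumen and releases them as secretory IgA. APRIL (*Tnfsf13*) is a ligand that keeps plasma cells alive through its receptor BCMA (*Tnfrsf17*), and syndecan-1 (*Sdc1*, CD138) is a heparan sulphate proteoglycan that marks plasma cells but is also abundant on epithelial cells. No immunoglobulin heavy or light chain gene is among the 21965 genes, so IgA transcripts themselves were not analysed here.

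Promoter sequences from RefSeq (GRCm38.p6) were searched for 9 of the members on both strands in the 250 bases before the annotated start. The 3 promoters that held one of the 3 motifs searched are printed, because 2 of them belong to members that passed the test between the diets and the other to the ER factor *Derl3*. The motifs are in capitals. They are an E-box, written CACGTG, which reads the same on both strands, an ER stress element, written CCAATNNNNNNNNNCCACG, and an interferon-stimulated response element, written GAAANNGAAA.
Pigr, chr1:130826434-130826683, plus strand: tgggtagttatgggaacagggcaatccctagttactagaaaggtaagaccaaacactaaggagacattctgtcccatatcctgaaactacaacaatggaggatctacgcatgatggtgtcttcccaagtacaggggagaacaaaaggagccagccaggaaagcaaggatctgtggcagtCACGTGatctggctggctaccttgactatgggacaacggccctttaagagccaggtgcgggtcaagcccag
Tnfrsf17, chr16:11313559-11313808, plus strand: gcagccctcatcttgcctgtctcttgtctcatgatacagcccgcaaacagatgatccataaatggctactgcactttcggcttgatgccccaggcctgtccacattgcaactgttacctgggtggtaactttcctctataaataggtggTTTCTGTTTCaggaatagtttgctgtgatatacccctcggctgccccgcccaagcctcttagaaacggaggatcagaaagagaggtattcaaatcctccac
Derl3, chr10:75893148-75893397, plus strand: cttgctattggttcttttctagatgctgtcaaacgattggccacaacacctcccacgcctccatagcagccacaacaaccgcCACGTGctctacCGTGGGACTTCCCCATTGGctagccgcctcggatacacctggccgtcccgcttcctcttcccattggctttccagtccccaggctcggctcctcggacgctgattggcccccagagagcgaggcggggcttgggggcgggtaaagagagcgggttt
Counted back from the start of the gene, the E-box of *Pigr* lay at -71 to -66 and that of *Derl3* at -168 to -163. The ER stress element of *Derl3*, read on the minus strand, lay at -156 to -138, and the response element of *Tnfrsf17*, also on the minus strand, at -101 to -92. No motif overlapped another. Of 32851 mouse promoters of the same length, 6.02% held the E-box, 0.113% the ER stress element and 2.98% the response element, and among the 9 members searched 2, 1 and 1 held them. These are matches of letters only.

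Depth was similar across libraries, at 8422645 to 11438539 counts, and 3 counts corresponded to 0.246 to 0.421 CPM (counts scaled to a common library size). Levels below are CPM over the library size adjusted by TMM, a scaling between libraries that balances most genes, and levels between genes are FPKM, that is CPM per kilobase of exon. The tissue label was checked against markers of the segments of the gut and of other cell types, and 6 libraries stood apart. In *fat-1* PF replicates 2 and 4, the summed CPM of 9 markers of the proximal small intestine was 62838 and 60024, against 209 to 24875 in the other 14 libraries, and 6 ileum markers summed to 916 and 648. In *fat-1* EtOH replicates 3 and 4, ileum markers summed to 974 and 1933, whereas all other libraries than these 4 held 2925 to 9357. The same 2 *fat-1* EtOH libraries held 12185 and 13207 CPM of 9 large intestine markers, with 5210.4 in WT EtOH replicate 2 and 283 to 548 in the other 13 libraries, and 128 and 117 CPM of 6 Paneth cell markers against 6619 to 26093 elsewhere. *fat-1* EtOH replicate 5 held 801 CPM of 12 B-cell follicle markers against 14.3 to 179.9 in the other 15 libraries, 227 CPM of 8 T cell markers against 18.5 to 67.4, and 732 CPM of 8 macrophage and dendritic cell markers against 110.4 to 341. Called fold changes of the members that rest on these libraries are given with and without them.

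*Pigr* was the most abundant member, with a mean of 730.2 FPKM over the 16 libraries and a range of 470.1 to 1199.8. *Jchain* followed at 229 FPKM (47.9 to 541), *Xbp1* at 89.2 (67.4 to 118) and *Sdc1* at 45.7 (18.8 to 66). The other 6 members had means of 8.82 FPKM for *Mzb1*, 3.8 for *Tnfsf13*, 2.71 for *Derl3*, 2.4 for *Prdm1*, 1.66 for *Tnfrsf17* and 1.44 for *Irf4*. Of neighbours in this order, only *Xbp1* and *Sdc1* had ranges that did not overlap. The spread between libraries differed widely, from a highest value 1.75 times the lowest for *Xbp1* and 2.55 times for *Pigr* to 12 times for *Derl3*, 16.8 times for *Mzb1* and 26.8 times for *Irf4*.

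**Figure D1:**
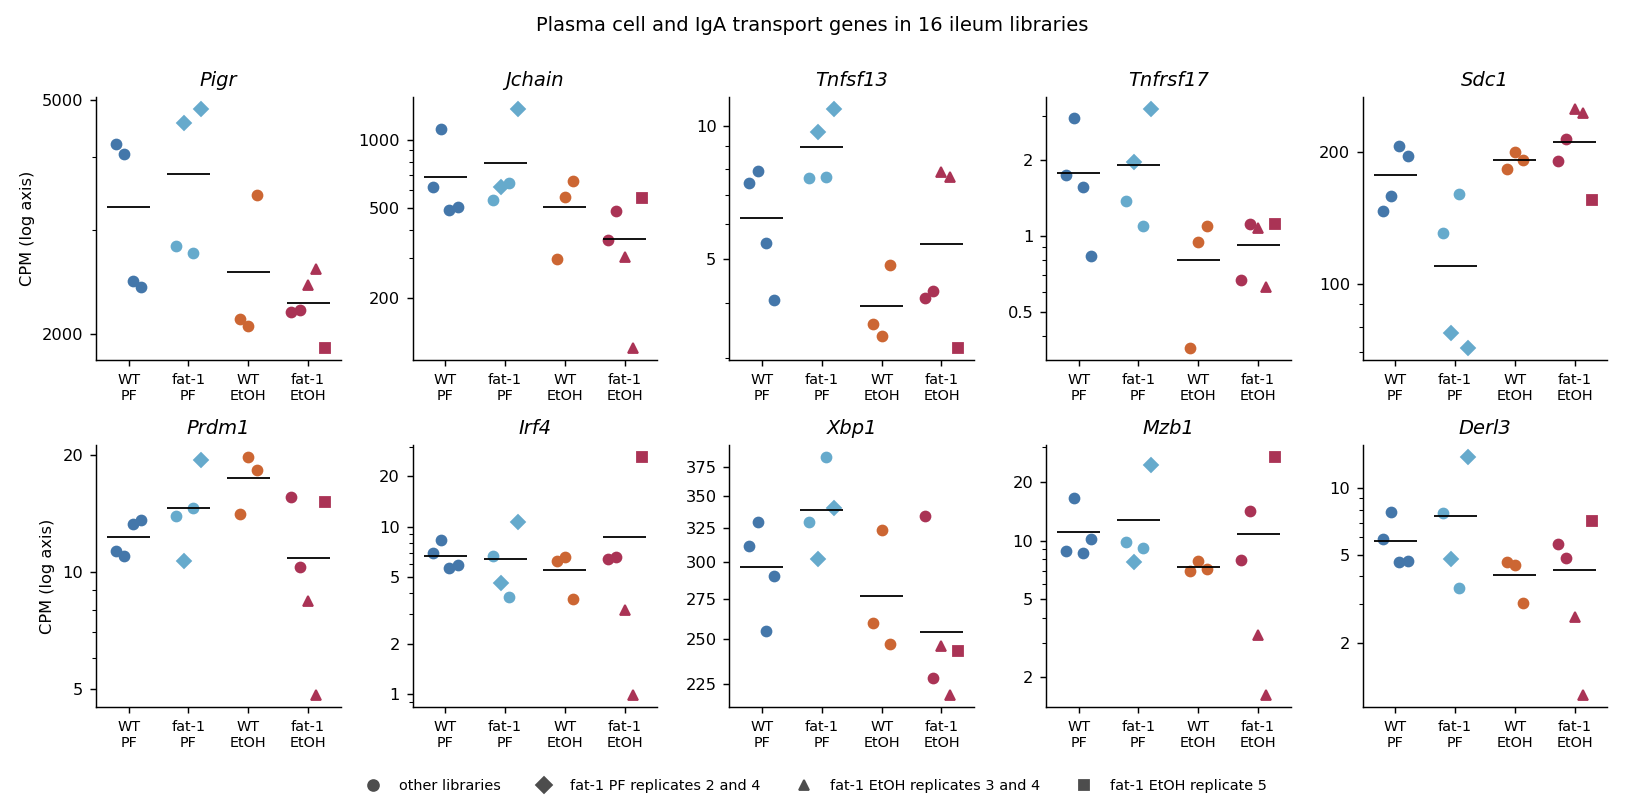
CPM of the 10 genes (log axis, a panel for each gene) in each library of the 4 groups, with a black line at the group mean. The *fat-1* EtOH libraries of *Pigr* all lie below the *fat-1* PF libraries, while *Irf4*, *Mzb1* and *Derl3* are spread most widely within *fat-1* EtOH, with replicates 3 and 4 (triangles) lowest and replicate 5 (square) highest.

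The diet effect was tested within each genotype and averaged over both, and the genotype effect within each diet. In *fat-1* mice, EtOH feeding was accompanied by lower *Pigr*, *Jchain* and *Xbp1* and by higher *Sdc1*, 4 of the 10 members. This count stood beside 5170 of 13811 genes called in the same comparison, or 37.4%, so that the share of members called, 40%, was near the background. Averaged over both genotypes, *Pigr*, *Tnfsf13* and *Tnfrsf17* were lower and *Sdc1* higher with EtOH, again 4 of 10, against 4955 genes or 35.9% of all. The median log2 fold change of the members was -0.58 in *fat-1* mice and -0.48 averaged over genotypes, and that of all genes tested was 0.05 and 0.04. Of all genes called, 2578 of 5170 were higher in *fat-1* mice and 2522 of 4955 over both genotypes with TMM scaling, against 3906 of 5659 and 3643 of 5342 with upper-quartile scaling, which moved the median of all genes to 0.20 and 0.14. With upper-quartile scaling *Sdc1* was the member still called in *fat-1* mice, while *Pigr* (-0.57 ± 0.24, adjusted p = 0.0665), *Jchain* (-0.98 ± 0.40, adjusted p = 0.0661) and *Xbp1* (-0.27 ± 0.13, adjusted p = 0.118) kept their sign and missed the threshold. The comparisons within *fat-1* mice and over both genotypes share their *fat-1* libraries and are not independent. Because whole pieces of tissue were sequenced, fewer cells of a type and less RNA per cell cannot be told apart in any of these values.

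No member was called in the other 4 comparisons by edgeR's quasi-likelihood test. Between *fat-1* PF and WT PF, 0% of all genes were called, 1 member (*Sdc1*) had an unadjusted p under 0.05, as did 1758 genes, and neither DESeq2 nor voom called a member. Between WT EtOH and WT PF, 0.0796% of all genes were called (11 genes), 1 member (*Tnfrsf17*) and 1953 genes had an unadjusted p under 0.05, DESeq2 called no member and voom called *Tnfrsf17* and *Tnfsf13*, while voom called 20.3% of all genes. Between *fat-1* EtOH and WT EtOH, 0.00724% of all genes were called (1 gene), and 1 member (*Prdm1*) and 671 genes had an unadjusted p under 0.05. For the interaction of genotype and diet, which asks whether the diet effect differed between the genotypes, 0% of all genes were called, and 2 members (*Sdc1* and *Prdm1*) and 1141 genes had an unadjusted p under 0.05. DESeq2 and voom called no member in the latter 2 comparisons. Therefore no difference between the genotypes in their response to EtOH was detected for these genes, whichever genotype passed the test on its own.

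**Figure D2:**
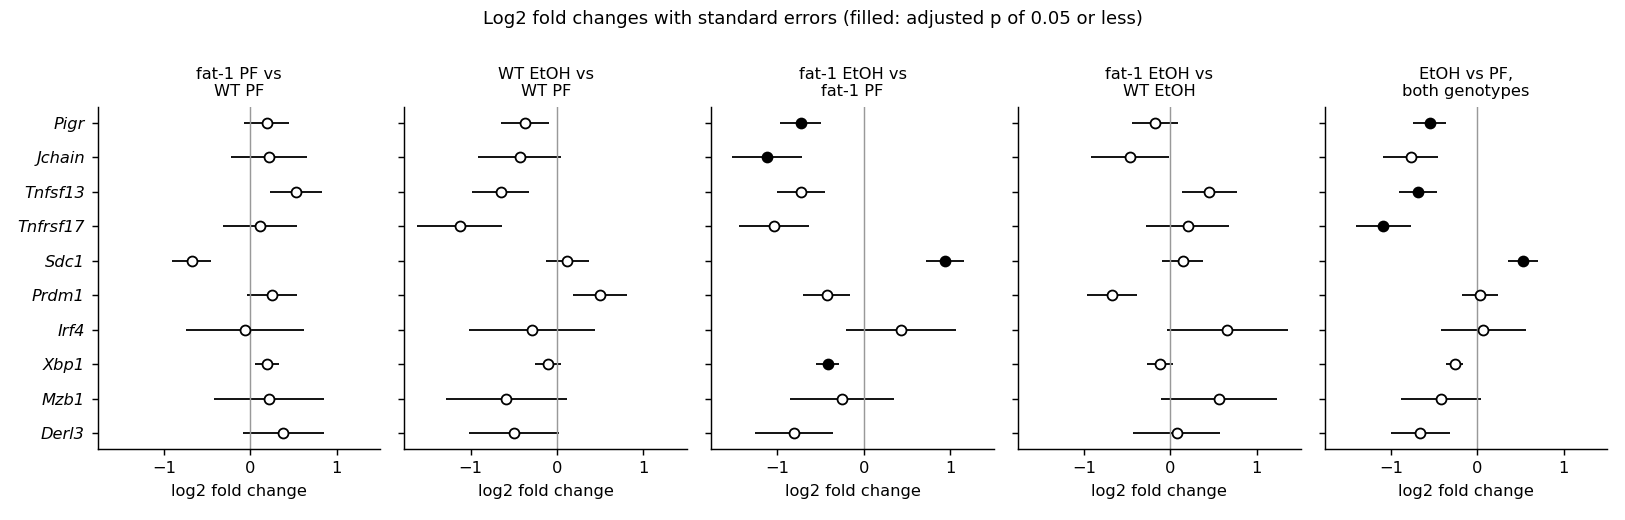
Log2 fold changes of the 10 genes (x axis) with the standard error of the fit, a panel for each comparison, with filled points where the adjusted p was 0.05 or less. Filled points occur only in the third panel (*Pigr*, *Jchain*, *Sdc1*, *Xbp1*) and the fifth (*Pigr*, *Tnfsf13*, *Tnfrsf17*, *Sdc1*).

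*Pigr* (ENSMUSG00000026417, GRCm38 chr1:130826684-130852249, plus strand, 13 exons) encodes the receptor that carries IgA through the epithelium. Its CPM was 4217, 4056, 2465 and 2406 in WT PF and 2123, 2066 and 3452 in WT EtOH mice, with 2824, 4565, 2742 and 4829 for *fat-1* PF and 2181, 2197, 2426, 2583 and 1892 for *fat-1* EtOH mice. Every *fat-1* EtOH value was below every *fat-1* PF value, whereas the WT groups overlapped, with WT EtOH replicate 3 above the 2 lower WT PF libraries. The mean ± SD was 3739.9 ± 1111 CPM in *fat-1* PF (n = 4) and 2256 ± 263 in *fat-1* EtOH (n = 5), 1.66-fold lower (log2 fold change -0.73 ± 0.24 SE, adjusted p = 0.03, exact permutation p = 0.0159, the smallest this design allows). In WT mice it was 3286 ± 985 (n = 4) and 2547 ± 784 (n = 3), with a log2 fold change of -0.37 ± 0.28 (adjusted p = 0.577, exact permutation p = 0.286, where 0.0571 is the smallest possible). Averaged over genotypes, *Pigr* was 1.46-fold lower with EtOH (log2 fold change -0.55 ± 0.19, adjusted p = 0.0338, exact permutation p = 0.0236). The interaction was -0.36 ± 0.37 (adjusted p = 0.74).

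The lower *Pigr* moved with the libraries that stood apart. *fat-1* PF replicates 2 and 4, with the highest proximal markers, also had the highest *Pigr*, at 4565 and 4829 CPM against 2824 and 2742 in *fat-1* PF replicates 1 and 3. Without these 2 libraries the log2 fold change in *fat-1* mice was -0.30 ± 0.27 (adjusted p = 0.433), and averaged over genotypes -0.33 ± 0.18 (adjusted p = 0.196). Without *fat-1* EtOH replicates 3 and 4, the libraries high in large intestine markers, the 2 values were -0.81 ± 0.27 (adjusted p = 0.0366) and -0.58 ± 0.19 (adjusted p = 0.0283), and the averaged value without WT EtOH replicate 2 as well was -0.52 ± 0.21 (adjusted p = 0.0669). In *fat-1* mice the call was also lost on leaving out *fat-1* PF replicate 2 (adjusted p = 0.0985), *fat-1* PF replicate 4 (0.107), *fat-1* EtOH replicate 1 (0.0506) or *fat-1* EtOH replicate 5 (0.0635), and averaged over genotypes on leaving out any of 7 of the 16 libraries (adjusted p of up to 0.0909). The summed proximal markers ranged from 6484 to 24875 CPM in WT PF and 2671 to 3835 in WT EtOH mice, with 16527 to 62838 for *fat-1* PF and 209 to 5519.9 for *fat-1* EtOH mice, so that every EtOH library lay below every PF library. Of the 9 markers, 8 were called lower with EtOH in *fat-1* mice, beside 37.4% of all genes called. Among WT mice 3 were called lower, beside 0.0796% of all genes, and 6 had an unadjusted p under 0.05, beside 14.1%. All 9 were lower without overlap in WT EtOH than in WT PF, with a median log2 fold change of -5.37. The markers were chosen with earlier results of these data known. Their fall with EtOH therefore describes the libraries and is not a test of segment. *Gata4* was at 0 in *fat-1* EtOH replicate 3. The part of these markers in the *Pigr* result was not tested.

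*Pigr* was also set against 8 general epithelium markers, whose sum was 10433 and 10438 CPM in *fat-1* EtOH replicates 4 and 3 and 12334 to 19113 in the other libraries. Per 1000 CPM of these markers, *Pigr* was 186 ± 57.4 in WT PF and 158 ± 49.9 in WT EtOH mice, with 242 ± 101 for *fat-1* PF and 178 ± 58.1 for *fat-1* EtOH mice. The groups overlapped on this scale, with a log2 difference of -0.40 in *fat-1* mice (exact permutation p = 0.302) and -0.32 over both genotypes (exact permutation p = 0.21). Without *fat-1* PF replicates 2 and 4 the log2 difference in *fat-1* mice had the opposite sign, at 0.13 (exact permutation p = 0.857), and without *fat-1* EtOH replicates 3 and 4 it was -0.73 (exact permutation p = 0.114, where 0.0571 is the smallest possible). The difference in *Pigr* was therefore past the threshold per library but not per epithelium marker. The 8 markers were not constant themselves: *Krt18* and *Krt19* were higher and *Krt20* and *Vil1* lower in *fat-1* EtOH than in *fat-1* PF mice.

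**Figure D3:**
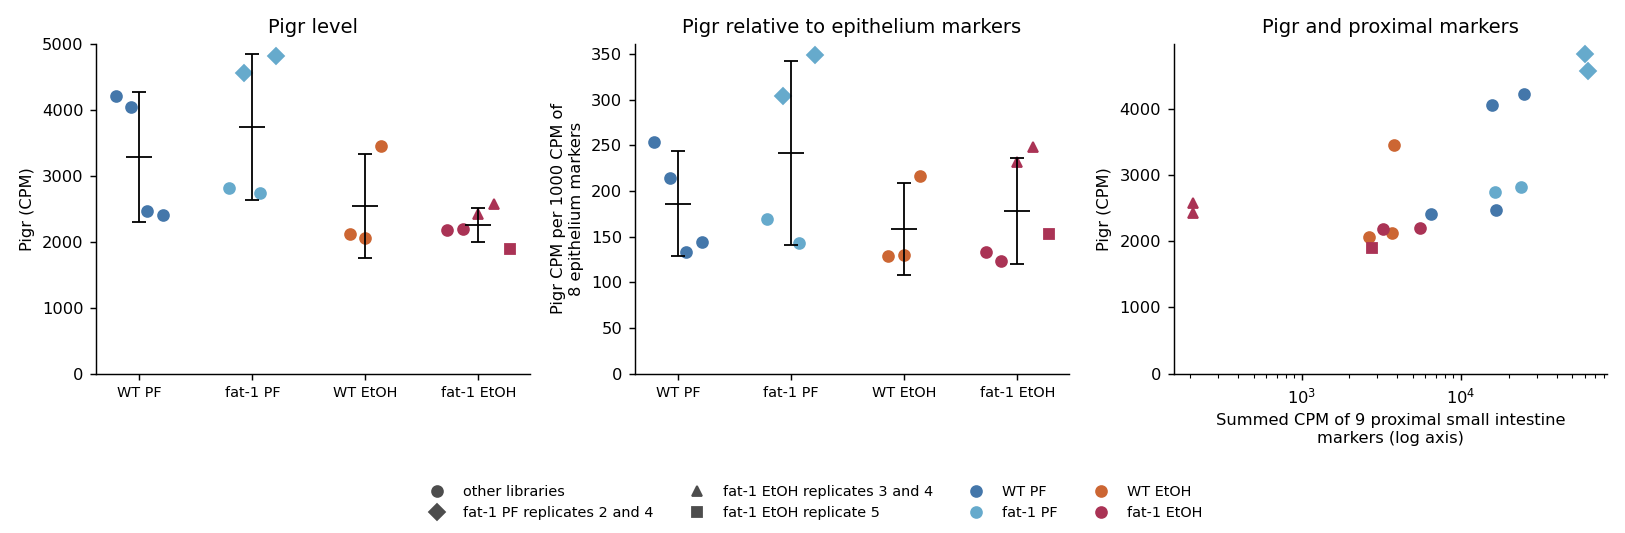
*Pigr* in each library as CPM (left), as CPM per 1000 CPM of 8 epithelium markers (middle), each with the group mean and SD in black, and as CPM against the summed CPM of 9 proximal small intestine markers (right, log x axis). *fat-1* PF replicates 2 and 4 (diamonds) are highest in proximal markers, at 62838 and 60024 CPM, and in *Pigr*; the groups overlap in the middle panel.

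*Jchain* (ENSMUSG00000067149, GRCm38 chr5:88519809-88527891, minus strand, 4 exons) encodes the chain that joins IgA into dimers. Its CPM was 619, 1116, 488 and 504 in WT PF and 298, 560.4 and 658 in WT EtOH mice, with 542, 621, 643 and 1363 for *fat-1* PF and 363, 485, 303, 121 and 556 for *fat-1* EtOH mice. The *fat-1* groups overlapped only in that *fat-1* EtOH replicate 5 lay above *fat-1* PF replicate 1, and the lowest value of all was in *fat-1* EtOH replicate 4. The mean of 792 ± 383 CPM for *fat-1* PF mice fell to 366 ± 169 in *fat-1* EtOH mice, 2.17-fold lower (log2 fold change -1.12 ± 0.41, adjusted p = 0.0466, exact permutation p = 0.0317). In WT mice the means were 682 ± 295 and 505 ± 186 CPM (log2 fold change -0.43 ± 0.48, adjusted p = 0.72). Averaged over genotypes, the log2 fold change was -0.77 ± 0.32 (adjusted p = 0.07, exact permutation p = 0.0254), past the threshold with DESeq2 (adjusted p = 0.0342) and voom (0.0287). Of 28 alternative settings, DESeq2 and voom among them, 3 called this averaged difference and 25 did not, with an adjusted p of up to 0.281.

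The call of *Jchain* in *fat-1* mice was close to the threshold and was lost in 11 of 16 refits that left out 1 library. The largest shift came without *fat-1* PF replicate 4, with a log2 fold change of -0.71 ± 0.41 (adjusted p = 0.2). Without *fat-1* EtOH replicates 3 and 4, which were high in large intestine markers, it was -0.73 ± 0.38 (adjusted p = 0.163), and without both pairs of libraries that stood apart by segment it was -0.33 ± 0.39 (adjusted p = 0.574). *Jchain* per 1000 CPM of *Pigr*, a ratio of a plasma cell transcript to the epithelial receptor, was 207 ± 52.8 in WT PF and 201 ± 66 in WT EtOH mice, with 211 ± 62.1 for *fat-1* PF and 171 ± 93.9 for *fat-1* EtOH mice. The ratio differed by less than the spread between mice in all 4 pairwise comparisons (exact permutation p of 0.429 to 0.971).

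*Tnfsf13* (ENSMUSG00000089669, GRCm38 chr11:69682846-69685784, minus strand) encodes APRIL. Its CPM was 7.43, 7.92, 5.44 and 4.05 in WT PF and 3.58, 3.36 and 4.87 in WT EtOH mice, with 7.63, 9.69, 7.65 and 10.9 for *fat-1* PF and 4.09, 4.25, 7.87, 7.67 and 3.16 for *fat-1* EtOH mice. In *fat-1* EtOH mice, replicates 3 and 4 reached into the *fat-1* PF range and the other 3 lay below it. Averaged over genotypes, *Tnfsf13* was 1.61-fold lower with EtOH (log2 fold change -0.69 ± 0.22, adjusted p = 0.0235, exact permutation p = 0.0068). The log2 fold change was -0.65 ± 0.33 in WT mice (adjusted p = 0.385) and -0.73 ± 0.28 in *fat-1* mice (adjusted p = 0.0537), and the interaction was -0.08 ± 0.43 (adjusted p = 0.962).

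The difference in *Tnfsf13* in *fat-1* mice was larger when the libraries with large intestine markers were left out. Without *fat-1* EtOH replicates 3 and 4 its log2 fold change was -1.19 ± 0.25 (adjusted p = 0.00392), and without *fat-1* PF replicates 2 and 4 as well it was -0.98 ± 0.29 (adjusted p = 0.0458). The averaged call was lost without WT PF replicate 2 (adjusted p = 0.0548), WT EtOH replicate 1 (0.0586) or WT EtOH replicate 2 (0.056), and without *fat-1* PF replicates 2 and 4 together (0.102). Counts of this gene are uncertain, because 60% of its exon bases are shared with the read-through transcript *Tnfsfm13* on the same strand and 13.5% lie opposite to *Tnfsf13os*.

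*Tnfrsf17* (ENSMUSG00000022496, GRCm38 chr16:11313812-11320074, plus strand, 3 exons) encodes BCMA, the APRIL receptor of plasma cells, and was counted with only 4 to 26 reads per library. Its CPM was 1.75, 2.94, 1.56 and 0.831 in WT PF and 0.358, 0.945 and 1.09 in WT EtOH mice, with 1.38, 1.97, 1.09 and 3.19 for *fat-1* PF and 0.665, 1.11, 1.07, 0.624 and 1.11 for *fat-1* EtOH mice. All 8 EtOH values lay between 0.358 and 1.11, and 6 of the 8 PF values were higher than these. Averaged over genotypes, *Tnfrsf17* was 2.13-fold lower with EtOH (log2 fold change -1.09 ± 0.32, adjusted p = 0.0171, exact permutation p = 0.00771). The sizes within genotypes were alike, with log2 fold changes of -1.13 ± 0.49 in WT (adjusted p = 0.318) and -1.04 ± 0.41 in *fat-1* mice (adjusted p = 0.0598), and an interaction of 0.09 ± 0.63 (adjusted p = 0.971).

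The averaged call of *Tnfrsf17* was lost in 1 of 16 refits that left out a single library, without WT EtOH replicate 1 (log2 fold change -0.91 ± 0.33, adjusted p = 0.0515). Without *fat-1* PF replicates 2 and 4 it was -0.78 ± 0.34 (adjusted p = 0.108). Relative to *Jchain*, *Tnfrsf17* was 2.57 ± 0.657 CPM per 1000 CPM in WT PF and 1.52 ± 0.273 in WT EtOH mice, with 2.44 ± 0.602 for *fat-1* PF and 2.96 ± 1.41 for *fat-1* EtOH mice. Every *fat-1* EtOH ratio was above every WT EtOH ratio (exact permutation p = 0.0357, the smallest this design allows, in a family of 8 ratios each compared 5 ways and with no adjustment).

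*Sdc1* (ENSMUSG00000020592, GRCm38 chr12:8771323-8793715, plus strand, 7 exons) encodes syndecan-1. It was the member with the smallest adjusted p between diets in *fat-1* mice, in the direction opposite to *Pigr* and *Jchain*. Its CPM was 147, 159, 207 and 196 in WT PF and 183, 200.3 and 192 in WT EtOH mice, with 131, 77.5, 161 and 71.6 for *fat-1* PF and 191, 214, 251, 246 and 156 for *fat-1* EtOH mice. The *fat-1* groups overlapped only in *fat-1* EtOH replicate 5, at 156, and *fat-1* PF replicate 3, at 161. The mean rose from 110.3 ± 43.2 CPM in *fat-1* PF to 212 ± 39.7 in *fat-1* EtOH mice, 1.92-fold higher (log2 fold change 0.94 ± 0.22, adjusted p = 0.00521, exact permutation p = 0.0317). In WT mice the means were 177 ± 28.8 and 192 ± 8.55 (log2 fold change 0.12 ± 0.25, adjusted p = 0.868). Averaged over genotypes, *Sdc1* was 1.44-fold higher with EtOH (log2 fold change 0.53 ± 0.17, adjusted p = 0.0227, exact permutation p = 0.00952). In that comparison *Tnfrsf17* had a smaller edgeR adjusted p, at 0.0171.

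Both *Sdc1* calls held in all 16 refits that left out 1 library. They were lost without *fat-1* PF replicates 2 and 4, the libraries with the lowest *Sdc1*, where the log2 fold change was 0.54 ± 0.19 in *fat-1* mice (adjusted p = 0.0721) and 0.33 ± 0.13 over both genotypes (adjusted p = 0.0723). Of 29 alternatives 2 lost the call in *fat-1* mice, the other being without *fat-1* EtOH replicates 3 and 4 as well. Over these alternatives the lowest log2 fold change was 0.37 and the adjusted p was up to 0.16. The averaged call was also lost without *fat-1* EtOH replicates 3 and 4 (0.45 ± 0.18, adjusted p = 0.0593). *fat-1* PF lay below WT PF with a log2 fold change of -0.68 ± 0.23, which did not pass (adjusted p = 0.227), and the interaction was 0.83 ± 0.33 (adjusted p = 0.595). Relative to epithelium markers, *Sdc1* was 6.65 ± 1.73 CPM per 1000 CPM in *fat-1* PF and 16.8 ± 6.45 in *fat-1* EtOH mice, with every *fat-1* EtOH mouse above every *fat-1* PF mouse (exact permutation p = 0.0159). In contrast to *Pigr*, the *Sdc1* difference was thus as large on this scale (log2 difference 1.29). It was 0.96 without *fat-1* PF replicates 2 and 4, 0.90 without *fat-1* EtOH replicates 3 and 4 and 0.57 without both pairs, with exact permutation p of 0.0952, 0.0571 and 0.2, each the smallest that many libraries allow.

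The 2 transcription factors that set the plasma cell program showed no call. *Prdm1* (ENSMUSG00000038151, GRCm38 chr10:44437177-44528501, minus strand), for BLIMP-1, which is also made by gut epithelium before weaning, had CPM of 11.3, 11, 13.3 and 13.6 in WT PF and 14.1, 19.8 and 18.3 in WT EtOH mice, with 13.9, 10.7, 14.6 and 19.4 for *fat-1* PF and 15.6, 10.3, 8.45, 4.82 and 15.1 for *fat-1* EtOH mice. WT EtOH values were all above WT PF values (log2 fold change 0.50 ± 0.31, adjusted p = 0.473, exact permutation p = 0.0571, the smallest this design allows). In *fat-1* mice the log2 fold change was -0.43 ± 0.27 (adjusted p = 0.223), with the 2 lowest values of the series in *fat-1* EtOH replicates 3 and 4. The interaction was -0.93 ± 0.41 (unadjusted p = 0.0393, adjusted p = 0.595), and without those 2 libraries -0.58 ± 0.29 (adjusted p = 0.583).

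*Irf4* (ENSMUSG00000021356, GRCm38 chr13:30749226-30766976, plus strand) had CPM of 6.99, 8.38, 5.66 and 5.92 in WT PF and 6.27, 6.61 and 3.7 in WT EtOH mice, with 6.68, 4.63, 3.83 and 10.7 for *fat-1* PF and 6.46, 6.63, 3.2, 0.981 and 26.3 for *fat-1* EtOH mice. The *fat-1* EtOH group held both the lowest and the highest value of the series. Its log2 fold change against *fat-1* PF was 0.43 ± 0.64 (adjusted p = 0.614) with all libraries and -0.57 ± 0.46 (adjusted p = 0.343) without replicate 5, the library with high B-cell follicle markers. The sign of the difference thus rested on 1 library.

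*Xbp1* (ENSMUSG00000020484, GRCm38 chr11:5520659-5525893, plus strand, 4 exons) encodes the factor that expands the secretory pathway in plasma cells and also in Paneth and goblet cells. Its CPM was 311, 329, 255 and 290.2 in WT PF and 259.6, 323 and 247 in WT EtOH mice, with 329, 302, 384 and 340.2 for *fat-1* PF and 334, 228, 246, 219 and 243 for *fat-1* EtOH mice. Of the *fat-1* EtOH libraries, 4 lay below every *fat-1* PF library and replicate 1 lay within their range. The mean fell from 339 ± 34.1 CPM in *fat-1* PF to 254 ± 46.1 in *fat-1* EtOH mice, 1.33-fold lower (log2 fold change -0.42 ± 0.13, adjusted p = 0.0254, exact permutation p = 0.0476). In WT mice the log2 fold change was -0.10 ± 0.15 (adjusted p = 0.809), averaged over genotypes -0.26 ± 0.10 (adjusted p = 0.0617), and the interaction was -0.32 ± 0.20 (adjusted p = 0.627).

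The call of *Xbp1* was lost in 5 of 16 refits without 1 library, which were *fat-1* PF replicates 3 (adjusted p = 0.0843) and 4 (0.0581) and *fat-1* EtOH replicates 3 (0.058), 4 (0.0675) and 5 (0.055), and without *fat-1* EtOH replicates 3 and 4 together (log2 fold change -0.31 ± 0.15, adjusted p = 0.132). Without *fat-1* PF replicates 2 and 4 it was -0.48 ± 0.17 (adjusted p = 0.0721). *fat-1* EtOH replicates 3 and 4 had 128 and 117 CPM of Paneth cell markers, as given above, and the part of this in the *Xbp1* result was not tested. Per 1000 CPM of epithelium markers, *Xbp1* was 21.1 ± 2.33 in *fat-1* PF and 19.5 ± 4.04 in *fat-1* EtOH mice (log2 difference -0.14, exact permutation p = 0.571). On the same scale every *fat-1* PF library, at 19.7 or more, lay above every WT PF library, at 18.7 or less (log2 difference 0.33, exact permutation p = 0.0286, the smallest this design allows, unadjusted in the family of 8 ratios compared 5 ways). Without *fat-1* PF replicates 2 and 4 the difference between the *fat-1* groups was -0.06, and without *fat-1* EtOH replicates 3 and 4 it was -0.29 (exact permutation p of 0.857 and 0.343).

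*Mzb1* and *Derl3* are ER genes restricted largely to antibody-secreting cells. *Mzb1* (ENSMUSG00000024353) had CPM of 8.85, 16.5, 8.66 and 10.2 in WT PF and 6.98, 7.87 and 7.14 in WT EtOH mice, with 9.86, 7.72, 9.16 and 24.5 for *fat-1* PF and 7.98, 14.1, 3.28, 1.61 and 26.9 for *fat-1* EtOH mice. WT EtOH values were all below WT PF values (log2 fold change -0.59 ± 0.70, adjusted p = 0.742, exact permutation p = 0.0571). In *fat-1* mice the log2 fold change was -0.25 ± 0.60 (adjusted p = 0.761) with all libraries, -0.91 ± 0.53 (adjusted p = 0.195) without *fat-1* EtOH replicate 5 and 0.28 ± 0.64 (adjusted p = 0.75) without *fat-1* PF replicate 4, so that single libraries decided its sign. In the annotation, 57.2% of its exon bases are shared with a read-through transcript on the same strand.

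*Derl3* (ENSMUSG00000009092, GRCm38 chr10:75893413-75895941, plus strand) had CPM of 5.9, 7.81, 4.67 and 4.68 in WT PF and 4.66, 4.51 and 3.02 in WT EtOH mice, with 7.74, 4.77, 3.55 and 13.9 for *fat-1* PF and 5.61, 4.85, 2.62, 1.16 and 7.1 for *fat-1* EtOH mice. WT EtOH values were again all below WT PF values (log2 fold change -0.50 ± 0.52, adjusted p = 0.695, exact permutation p = 0.0571). The log2 fold change was -0.81 ± 0.45 in *fat-1* mice (adjusted p = 0.162) and -0.66 ± 0.34 over both genotypes (adjusted p = 0.146, exact permutation p = 0.0603). *Derl3* was not called under any alternative setting.

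In *fat-1* EtOH replicates 3 and 4, *Irf4*, *Mzb1*, *Derl3* and *Prdm1* had the 2 lowest values of the series, and the 2 libraries also had the 2 lowest sums of B-cell follicle markers, at 27.9 and 14.3 CPM, with *Cd22* and *Fcer2a* at 0 in replicate 4. In *fat-1* EtOH replicate 5, *Irf4* and *Mzb1* were the highest of the series, and the follicle sum was 801 CPM. *Jchain* (556 CPM) and *Tnfrsf17* (1.11 CPM) were at the top of the *fat-1* EtOH group there, *Tnfrsf17* tied with replicate 2, but within the range of the PF libraries. Accordingly, *Irf4* per 1000 CPM of *Jchain* was 47.3 there, and *Mzb1* 48.4, against ranges of 5.95 to 12.3 and 12.4 to 18.2 in *fat-1* PF mice. The same ratios were 8.14 to 17.8 and 10.8 to 29.1 in the other *fat-1* EtOH mice, and 5.62 to 21 and 10.9 to 23.4 in WT EtOH mice. In *fat-1* PF replicate 4, *Jchain*, *Tnfrsf17*, *Derl3* and *Mzb1* were all high, with a follicle sum of 139.7 CPM that lay within the range of the PF mice. The part of follicle tissue in the levels of *Irf4* and *Mzb1* was not tested.

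**Figure D4:**
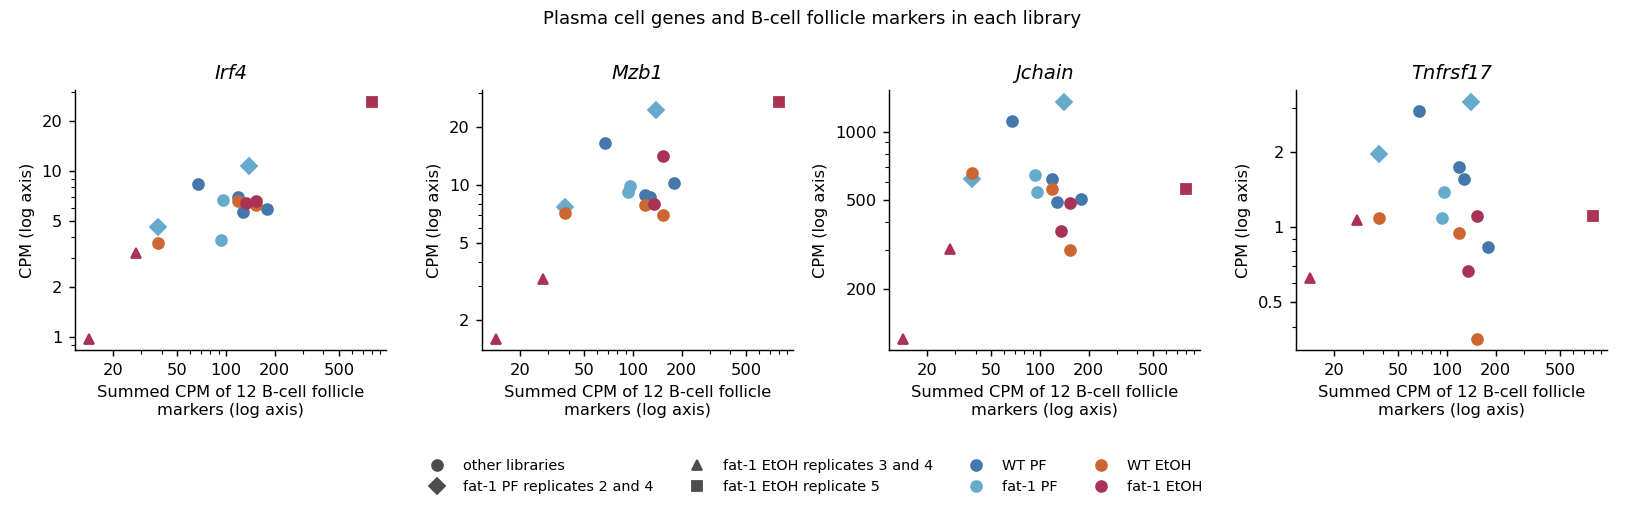
CPM of *Irf4*, *Mzb1*, *Jchain* and *Tnfrsf17* (y axes, log) against the summed CPM of 12 B-cell follicle markers (x axis, log) in the 16 libraries. *fat-1* EtOH replicate 5 (square, 801 CPM of markers) is highest for *Irf4* and *Mzb1* but not for *Jchain* and *Tnfrsf17*, and *fat-1* EtOH replicate 4, at 14.3 CPM of markers, is lowest for *Irf4*, *Mzb1* and *Jchain*.

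The members did not vary as a single group across the 16 libraries. On the log2 CPM scale, the Pearson r of *Jchain* was 0.82 with *Mzb1*, 0.81 with *Derl3*, 0.79 with *Tnfrsf17* and 0.57 with *Pigr*. By Spearman's rho the same 4 values were 0.50, 0.44, 0.72 and 0.62, so that the likeness to *Mzb1* and *Derl3* was lower by rank. For *Pigr*, r was 0.80 with *Tnfsf13*, 0.78 with *Tnfrsf17* and -0.71 with *Sdc1*, and rho was 0.85, 0.68 and -0.52. Among all genes tested, the 5 most like *Pigr* by r were *Ptpn3* (0.91), *Sh3bgrl* (0.88), *AI464131* (0.87), *Ovol2* (0.87) and *Blzf1* (0.86), and the 5 most like *Jchain* were *Spin1* (0.89), *Zfp120* (0.87), *Tram1* (0.87), *Lyn* (0.87) and *Fcgr1* (0.86). These correlations describe 16 libraries that differ in diet, genotype and tissue content, and carry no test.

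Further genes of the plasma cell and its secretory apparatus, 18 of 20 listed genes with enough counts, showed 2 higher and 2 lower calls in *fat-1* EtOH against *fat-1* PF mice, or 22.2% against 37.4% of all genes. *Ell2*, an elongation factor that favours the secreted form of antibody transcripts, fell from 106 ± 4.66 to 68.1 ± 17.7 CPM (log2 fold change -0.63 ± 0.15, adjusted p = 0.00534), and *Ssr4*, of the translocon, fell as well. *Trp53inp1* rose from 45.3 ± 8.26 to 73.5 ± 17.9 CPM (log2 fold change 0.70 ± 0.19, adjusted p = 0.0095), as did *Fndc3b*. The same 4 genes were called over both genotypes. The median log2 fold change of the list was 0.14, against 0.05 for all genes, so that the list as a whole lay close to all genes. Without *fat-1* PF replicates 2 and 4, 1 gene was called in *fat-1* mice, where the share of all genes called fell from 37.4% to 13.9%. *Ell2* (-0.57 ± 0.20, adjusted p = 0.0688) and *Trp53inp1* (0.68 ± 0.22, adjusted p = 0.0597) then missed the threshold. *Ell2* was lowest in *fat-1* EtOH replicates 3 and 4, at 55.6 and 48.1 CPM against 68.3 to 93.5 in the other *fat-1* EtOH libraries. Its log2 fold change was -0.39 ± 0.12 (adjusted p = 0.0239) without those 2 libraries and -0.29 ± 0.12 (adjusted p = 0.117) without replicate 5 as well. Without replicates 3, 4 and 5, which held the 3 highest values of the group, *Trp53inp1* was at 0.40 ± 0.20 (adjusted p = 0.186), and 17.9% of all genes were called.

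Among genes of IgA induction and homing, 21 of 26 were tested, and 1 was higher and 2 were lower in *fat-1* EtOH than in *fat-1* PF mice, or 14.3% against 37.4% of all genes, while the median log2 fold change of the list was 0.61 against 0.05. In the same comparison the medians were 1.63 for the 12 B-cell follicle markers and 0.53 for the 8 T cell markers, whose summed CPM was highest in *fat-1* EtOH replicate 5, and the part of this in the median of the list was not tested. *Ccr10*, the receptor that guides IgA plasma cells to mucosa, was lower over both genotypes (log2 fold change -1.53 ± 0.37, adjusted p = 0.00594), with means of 1.65 ± 0.696 CPM in WT PF and 0.662 ± 0.245 in WT EtOH mice, with 2.22 ± 0.545 for *fat-1* PF and 0.652 ± 0.451 for *fat-1* EtOH mice. *Ccl20*, a chemokine of follicle-associated epithelium, fell from 5.78 ± 5.51 to 1.52 ± 0.37 CPM in *fat-1* mice (log2 fold change -1.92 ± 0.51, adjusted p = 0.00942). *Cxcl12*, a stromal chemokine that holds plasma cells in place, rose from 16.8 ± 4.3 to 41.4 ± 26.8 CPM (log2 fold change 1.30 ± 0.35, adjusted p = 0.0102). The count moved with the libraries that stood apart: without *fat-1* EtOH replicates 3 and 4, 8 genes were called higher and 3 lower, beside 30.8% of all genes, and without *fat-1* PF replicates 2 and 4, 1 gene was called, beside 13.9%. *Ccl20* was 13.9 CPM in *fat-1* PF replicate 4 and 1.48 to 3.93 in the other *fat-1* PF libraries, and without *fat-1* PF replicates 2 and 4 its log2 fold change was -0.78 ± 0.46 (adjusted p = 0.239), with -1.67 ± 0.74 (adjusted p = 0.133) without *fat-1* EtOH replicates 3, 4 and 5. *Cxcl12* was 87.8 CPM in *fat-1* EtOH replicate 5 and 22.1 to 41.3 in the other *fat-1* EtOH libraries, and without replicates 3, 4 and 5 its log2 fold change was 0.61 ± 0.21 (adjusted p = 0.064). *Ccr10* was called over both genotypes in each fit without libraries that stood apart, at -1.47 to -1.26 (adjusted p of up to 0.0276). Its counts were low, with 0.0892 CPM in *fat-1* EtOH replicate 4 and 0.38 in replicate 1, where 3 counts correspond to 0.268 and 0.285 CPM.

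All 12 other genes of the APRIL and BAFF pathway were tested, and EtOH-fed *fat-1* mice had 1 higher and 1 lower call, or 16.7% against 37.4% of all genes. *Tnfsf13b*, which encodes BAFF, the ligand related to APRIL, was 12.3 ± 5.36 CPM in *fat-1* PF and 5.28 ± 1.31 in *fat-1* EtOH mice (log2 fold change -1.21 ± 0.29, adjusted p = 0.00553), and over both genotypes it fell by 0.88 ± 0.22 on the log2 scale (adjusted p = 0.00767). *Traf6*, an adaptor of receptor signalling, rose (log2 fold change 0.35 ± 0.13, adjusted p = 0.0424). The genes for both ligands, *Tnfsf13* and *Tnfsf13b*, were therefore lower with EtOH over both genotypes. No gene of this list was called in *fat-1* mice without *fat-1* PF replicates 2 and 4, where 13.9% of all genes were called, and *Traf6* was then at 0.14 ± 0.13 (adjusted p = 0.453). *Tnfsf13b* then had a log2 fold change of -0.64 ± 0.31 (adjusted p = 0.159) in *fat-1* mice and -0.60 ± 0.21 (adjusted p = 0.0575) over both genotypes.

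Of the genes known to act on *Pigr*, 19 of 21 were tested, and 3 were higher and 6 lower in *fat-1* EtOH than in *fat-1* PF mice, or 47.4% against 37.4% of all genes. *Tnfrsf1a*, the receptor of TNF, fell from 217 ± 24.3 to 112 ± 46.7 CPM (log2 fold change -0.96 ± 0.25, adjusted p = 0.00827), and *Ifngr2*, *Irf1*, *Stat6* and the E-box factors *Usf1* and *Usf2* were also lower. *Tlr4*, the receptor of endotoxin, rose from 1.87 ± 0.9 to 9.65 ± 7.6 CPM (log2 fold change 2.36 ± 0.58, adjusted p = 0.00621), as did *Tlr3* and *Ifngr1*. *Tlr4* was 4.37, 2.64, 20.9, 13.8 and 6.5 CPM in the *fat-1* EtOH libraries, highest in replicates 3 and 4. Its log2 fold change was 1.28 ± 0.42 without those 2 libraries (adjusted p = 0.0347), 0.93 ± 0.44 without replicate 5 as well (adjusted p = 0.157), and 1.93 ± 0.72 without *fat-1* PF replicates 2 and 4 (adjusted p = 0.0836). *Tnfrsf1a* was 68.6 and 55.8 CPM in *fat-1* EtOH replicates 3 and 4 and 131 to 159 in the other *fat-1* EtOH libraries, so that the size of its change rested on those 2. Its log2 fold change was -0.55 ± 0.12 (adjusted p = 0.00497) without them and -0.94 ± 0.33 (adjusted p = 0.0693) without *fat-1* PF replicates 2 and 4. *Hnf4a*, an epithelial factor, was 1301 ± 86.1 CPM in WT PF and 937 ± 146 in *fat-1* PF mice (log2 fold change -0.47 ± 0.15, adjusted p = 0.206). With *fat-1* PF replicates 2 and 4 left out, 2 of the 19 were called, beside 13.9% of all genes.

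All 16 genes of the XBP1 pathway and ER-associated degradation were tested, and 2 were higher and 4 lower in *fat-1* EtOH than in *fat-1* PF mice, or 37.5% against 37.4% of all genes. *Herpud1*, of the degradation complex, fell from 232 ± 37.5 to 133 ± 12.1 CPM (log2 fold change -0.80 ± 0.13, adjusted p = 5.9e-04), and *Derl1*, *Edem2* and *Sec61b* were lower as well. *Ern2*, the epithelial sensor that activates XBP1 in goblet cells, rose from 11.1 ± 5.78 to 38.5 ± 26.9 CPM (log2 fold change 1.79 ± 0.43, adjusted p = 0.00614), as did *Ern1*. *Ern2* was 19.6, 8.42, 6.97 and 9.2 CPM in the *fat-1* PF libraries and 21.3, 20.5, 81.4, 48.8 and 20.3 in the *fat-1* EtOH libraries, highest in replicates 3 and 4. Without those 2 libraries its log2 fold change was 0.91 ± 0.27 (adjusted p = 0.0236), and without *fat-1* PF replicates 2 and 4 it was 1.52 ± 0.58 (adjusted p = 0.091), with 0.63 ± 0.31 (adjusted p = 0.176) without all 4. In the same comparison 4 of 7 goblet cell markers were called higher (*Agr2*, *Clca1*, *Muc2* and *Spdef*) and *Zg16* lower (log2 fold change -0.58, adjusted p = 0.0123). *Spdef* was 200.3 and 113 CPM in *fat-1* EtOH replicates 3 and 4 against 23.2 to 31.3 in the other *fat-1* EtOH libraries, and *Muc2* and *Agr2* were also highest there, but *Clca1* was lowest there within the group. The part of this in the *Ern2* result was not tested. Over both genotypes 2 genes of the list were higher and 5 lower, or 43.8% against 35.9% of all genes. With the same 2 *fat-1* PF libraries left out, 2 of the 16 were called in *fat-1* mice, both lower, beside 13.9% of all genes, and *Herpud1* was still called (-0.64 ± 0.14, adjusted p = 0.0172).

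In the 4 other comparisons, none of the genes of these 5 lists was called by edgeR, with 0 to 3 genes of a list at an unadjusted p under 0.05. Other settings called up to 4, among the genes acting on *Pigr* in WT EtOH against WT PF mice. In that comparison other settings called up to 20.3% of all genes. The gene with the smallest adjusted p was, in the order of the lists above, *Fndc3b* (0.659), *Ccl20* (0.345), *Traf6* (0.474), *Hnf4a* (0.206) and *Herpud1* (0.248) for *fat-1* PF against WT PF. For WT EtOH against WT PF it was *Fndc3b* (0.305), *Ccr10* (0.316), *Traf6* (0.334), *Tlr3* (0.135) and *Edem2* (0.341). Between the EtOH groups all 5 lists had the same smallest adjusted p, 0.757, shared by several genes, of which *Sec11c*, *Cxcl12*, *Traf6*, *Irf1* and *Atf6* had the smallest unadjusted p (0.0675, 0.0215, 0.139, 0.127 and 0.165). For the interaction it was *Txndc5* (0.596), *Ccl20* (0.595), *Traf5* (0.607), *Ifngr2* (0.595) and *Herpud1* (0.595). Beside these lists, 6 of 6 smooth muscle markers were higher in *fat-1* EtOH than in *fat-1* PF mice, with sums between 906 and 1355 CPM for *fat-1* PF and between 1859 and 4042 CPM for *fat-1* EtOH mice, beside 37.4% of all genes called. In WT mice none of the 6 was called by edgeR, but all 6 had an unadjusted p under 0.05, with a median log2 fold change of 0.87, and the sums of 1066 to 1434 CPM for WT PF and 1964 to 2606 CPM for WT EtOH mice did not overlap. The summed muscle markers were thus higher with EtOH in every library of both genotypes. None of the 12 B-cell follicle, 8 T cell or 8 macrophage and dendritic cell markers, 6 Paneth cell markers or 6 ileum markers was called in any comparison by edgeR, and 0 of them had an unadjusted p under 0.05. Goblet cell marker sums lay between 10427 and 15265 CPM for *fat-1* PF and between 11569 and 18362 CPM for *fat-1* EtOH mice. How much the muscle, goblet, proximal and large intestine content of the pieces bears on the levels of the 10 genes was not tested.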

How the data were processed

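RNA of a segment of terminal ileum was made into stranded poly(A) libraries, 1 per mouse. The authors aligned reads to mm10 with tophat2, and the deposited values used here are raw read counts per gene. Whether the counting used strand is not given in the sources used here. The authors' own comparisons were not used. Gene positions and exon lengths came from GENCODE M21 (GRCm38), and 26 genes of the table were not in it. Genes passing edgeR's filterByExpr over the 4 groups (13811 of 21965; 4158 had no count in any library) were fitted together over 16 libraries with TMM scaling and edgeR 4.0.16's robust quasi-likelihood F test (R 4.3.3), with 1 mean per group. P-values were adjusted by Benjamini and Hochberg over all genes of each comparison and called at 0.05 or less. Errors of log2 fold changes are standard errors and those of levels are SD. Exact permutation tests were two-sided, on log2(CPM + 0.5), stratified by genotype for the averaged effect. Fold changes of single genes were also refitted with DESeq2 1.42.0, limma 3.58.1 (voom), other scalings, filters and sets of libraries, 29 alternatives in all, some chosen after seeing the data. The fitting was tested on simulated counts.

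The 10 genes, 5 pathway lists (95 genes) and 10 marker lists were chosen with earlier results of these data known. All members are named. From each list, the text names, per comparison, the called genes with the largest positive and the largest negative log2 fold change, or the gene with the smallest adjusted p where none was called, with ties taken by unadjusted p. Other called genes and *Krt* and *Vil1* markers were added after their values were seen. The 5 genes most like *Pigr* and *Jchain* were those with the highest Pearson r of log2 CPM. No libraries were duplicates. P-values of the main fit set a difference between groups against a spread between mice that all groups share. The coefficient of variation between mice, estimated per group, was 0.145 in WT PF, 0.173 in WT EtOH, 0.255 in *fat-1* PF and 0.408 in *fat-1* EtOH. Among the 10 members, depth limits *Tnfrsf17* most, with 4 to 26 counts.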

Additional observations from a re-analysis of the deposited data

Results flagged for a closer look

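In 4 of 30 combinations of a member and a group of 4 or 5 mice, 1 library lay far from the others by Dixon's ratio at the 95% level, where chance gives about 1 in 20. *Jchain* was 1363 CPM in *fat-1* PF replicate 4 against 542 to 643 in the other 3 mice. *Mzb1* was 24.5 CPM in the same library against 7.72 to 9.86. *Irf4* was 26.3 CPM in *fat-1* EtOH replicate 5 against 0.981 to 6.63 in the other 4 mice. *Xbp1* was 334 CPM in *fat-1* EtOH replicate 1 against 219 to 246, and without that library its log2 fold change against *fat-1* PF was -0.52 ± 0.12 (edgeR adjusted p = 0.00403).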

How the results depend on the processing

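No log2 fold change that was called changed sign under any alternative, and among the 52 of 60 pairs of a member and a comparison that were not called, 85 of 1487 refits changed sign, none of them called. The number of members called in *fat-1* EtOH against *fat-1* PF mice (4) became 2 with voom (beside 26.4% of all genes) and 1 with upper-quartile scaling (beside 41%). It was 1 with only the groups compared in the fit (beside 23.2%), and 1 to 5 when single libraries were left out (beside 28.5% to 39.4%). It became 2 without *fat-1* PF replicate 2 (beside 28.5%), *fat-1* EtOH replicate 1 (37.9%) or *fat-1* EtOH replicate 5 (37.2%), and 1 without *fat-1* PF replicate 4 (29.7%). Averaged over genotypes (4) it was 1 to 5 when single libraries were left out, beside 26.9% to 38.1% of all genes. It was 2 without WT PF replicate 2 (28.9%) and 1 without WT EtOH replicate 1 (26.9%). Without *fat-1* EtOH replicates 3 and 4 and WT EtOH replicate 2 it was 2 (32.9%). In fits chosen after seeing the data, the counts in *fat-1* mice and over both genotypes were each 2 without *fat-1* EtOH replicates 3, 4 and 5, 0 without *fat-1* PF replicates 2 and 4, and 1 without both pairs. In these 3 fits 17.9%, 13.9% and 12.1% of all genes were called in *fat-1* mice and 29.1%, 23.9% and 27.6% over both genotypes, so that calls fell across all genes too. The ratio of *Pigr* to epithelium markers in *fat-1* mice changed sign without *fat-1* PF replicates 2 and 4 (log2 difference 0.13, against -0.40). In WT mice, voom called 2 members (*Tnfrsf17* and *Tnfsf13*) where edgeR called 0, beside 20.3% of all genes with voom. The causes were not tested. Same-numbered libraries did not deviate together (mean r = -0.0225 over 21 pairs, against 0.00703 over 74 others). The numbers were not used to pair the mice, although this check over all genes cannot exclude a link such as pair-feeding. With a replicate block 2 members were called in *fat-1* mice, beside 34.4% of all genes. All genes called by DESeq2 and voom numbered 5556 and 3649 for the diet in *fat-1* mice, 257 and 2800 for the diet in WT, and 189 and 31 between *fat-1* PF and WT PF, where edgeR called 5170, 11 and 0. With only the groups compared, edgeR called 1103 in WT mice.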
